A study of Mus musculus with 4 samples.

Results

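The protamine and transition protein genes, with other genes of spermatid chromatin, were followed in adult mouse testis as a set of 10 transcripts. The set holds Prm1, Prm2, Prm3, Tnp1, Tnp2, Hils1, H1fnt, H2afb1, Brdt and Rnf8, chosen by symbol for what their proteins do. All 10 of the 10 symbols were among the 22552 in the tables, each on a row of its own. The genotypes compared were wild-type (WT) and Fam46c knockout (Fam46c KO), with 2 testis libraries each from adult males of a DBA/C57 F1 background. FAM46C belongs to the noncanonical poly(A) polymerases, which lengthen the adenosine tails of RNA, and the comparison asks which testis genes depend on it. The labels do not say how the knockout was made, which part of the gene it removes, or whether replicates are different mice, so every p-value measures only the spread between 4 libraries. Levels are in FPKM (fragments per kilobase of transcript, scaled by sequencing depth), and say nothing of tail length or of protein.

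During the haploid phase of sperm formation the spermatid nucleus exchanges its packaging. Histones are loosened by acetylation, ubiquitination and special histone variants, then transition proteins take their place, and the short, strongly basic protamines finally compact the DNA. In mouse, mRNAs for transition proteins and protamines are made in round spermatids, stored without translation, and translated later as the spermatid elongates.

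The members differ widely in how basic their products are. In GENCODE M21, arginine took 54.9% of the 51 Prm1 codons and 35.5% of the 107 Prm2 codons, the highest and the next highest share among 11621 tested genes with a coding sequence. The median gene had 5.62%. Tnp1 had arginine in 20.0% and lysine in 18.2% of its 55 codons, which put it right behind Prm1 and Prm2 for both residues together. Tnp2 had 13.7% arginine, and the spermatid linker histone gene H1fnt 16.3%. Prm3, which lies between Tnp2 and Prm2, had 1.98% arginine codons, rank 11464 of 11621, so its product does not share the composition of the other protamines. The coding sequences of Prm1 and Tnp1, from the first codon to the last before the stop, are shown with arginine and lysine codons in capitals (GRCm38).
Prm1: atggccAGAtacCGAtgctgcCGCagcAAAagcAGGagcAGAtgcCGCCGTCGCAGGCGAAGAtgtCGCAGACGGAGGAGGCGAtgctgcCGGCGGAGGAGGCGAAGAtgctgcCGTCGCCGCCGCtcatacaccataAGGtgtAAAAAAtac
Tnp1: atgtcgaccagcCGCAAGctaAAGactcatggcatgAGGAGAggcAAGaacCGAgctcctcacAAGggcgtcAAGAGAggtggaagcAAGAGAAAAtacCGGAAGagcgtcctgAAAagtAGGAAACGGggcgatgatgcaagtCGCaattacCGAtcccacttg

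Prm1, Prm2, Prm3 and Tnp2 stand next to each other on chromosome 16, with no other RefSeq gene between them in GRCm38.p6, while Tnp1 lies on chromosome 1. The promoters of the 4 most abundant members are shown because Prm1, Tnp1 and Tnp2 were all lowest in the same library, as described further on. Each runs from 250 bases before to 50 bases after the RefSeq start. Matches to TGACGTCA, the binding site of the CREM and CREB factors known from spermatid genes, to the looser form TGANNTCA, and to TATAAA are in capitals. The loose form was added after these promoters had been read.
Prm1 (chr16:10796774-10797073, minus strand): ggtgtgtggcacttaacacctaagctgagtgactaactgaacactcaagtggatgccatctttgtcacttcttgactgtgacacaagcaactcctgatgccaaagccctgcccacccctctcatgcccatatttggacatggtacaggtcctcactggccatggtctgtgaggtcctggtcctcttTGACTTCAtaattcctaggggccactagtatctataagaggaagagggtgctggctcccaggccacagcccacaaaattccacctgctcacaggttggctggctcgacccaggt
Prm2 (chr16:10792056-10792355, minus strand): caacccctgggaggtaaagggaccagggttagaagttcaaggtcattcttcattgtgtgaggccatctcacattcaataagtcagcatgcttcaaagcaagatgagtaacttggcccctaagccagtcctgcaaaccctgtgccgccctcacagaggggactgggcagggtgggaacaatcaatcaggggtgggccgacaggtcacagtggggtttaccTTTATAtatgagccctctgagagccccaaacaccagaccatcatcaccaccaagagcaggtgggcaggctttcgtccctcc
Tnp1 (chr1:73015850-73016149, minus strand): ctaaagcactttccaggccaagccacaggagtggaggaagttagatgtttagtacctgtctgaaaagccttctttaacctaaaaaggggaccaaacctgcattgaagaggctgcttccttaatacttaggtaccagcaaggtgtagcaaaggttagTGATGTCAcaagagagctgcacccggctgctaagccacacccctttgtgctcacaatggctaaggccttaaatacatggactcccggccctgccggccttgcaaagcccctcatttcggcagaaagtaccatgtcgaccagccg
Tnp2 (chr16:10788606-10788905, minus strand): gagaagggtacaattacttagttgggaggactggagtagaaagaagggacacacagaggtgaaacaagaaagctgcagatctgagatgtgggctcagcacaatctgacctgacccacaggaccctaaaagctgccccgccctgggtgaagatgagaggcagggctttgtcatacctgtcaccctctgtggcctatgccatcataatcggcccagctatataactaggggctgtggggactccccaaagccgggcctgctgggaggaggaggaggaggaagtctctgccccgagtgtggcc

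Both strands were searched, and TGACGTCA is itself a case of TGANNTCA. TGACGTCA was in 0 of the 9 member promoters that could be matched, and in 1.79% of 32851 RefSeq promoters of the same length. TGANNTCA was in 4 of the 9, those of Prm1, Prm3, Tnp1 and Hils1, where 14.1% of all held it. This form was picked after these promoters had been read, so its count cannot be weighed against that share. The match began 64 bases before the start in Prm1 and 94 bases before it in Tnp1. In Prm3 and Hils1 it read TGAGGTCA. TATAAA was found in 1 of the 9, Prm2, beginning 31 bases before the start, against 13.6% of all. There it lies on the strand opposite to the one shown, which reads TTTATA. Only these exact letters were counted, and not other stretches like them. A match describes letters in this window and is not evidence of binding.

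The symbol H2afb1 needs a remark. RefSeq lists it as an older name of 2 genes, H2al2a on chromosome 2 and H2ab1 on chromosome X, both encoding short histone H2A variants of spermatids. The tables also hold a row for Gm14920, which is a name of H2ab1 alone, and that row held 1.01 and 1.35 FPKM for WT and 0.571 and 0.511 in Fam46c KO. Which gene the H2afb1 row counts is not stated in the tables, so no sequence is shown for it and its values are given under the symbol as it stands.

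The libraries themselves were alike in size. Summed FPKM was 489702 to 528756, and the steps in the lowest values put the depth of the other libraries at 0.782 to 0.904 of WT replicate 2. With transcript lengths from GENCODE this amounts to roughly 16800000 fragments in the shallowest library, Fam46c KO replicate 1. There Rnf8, the rarest member, would rest on about 75 fragments with its shortest coding transcript and 590 with its longest, a counting error of 11.5% or 4.11%. H1fnt, Hils1 and Prm3 were taken at their lowest FPKM, that of WT replicate 1, with the depth of Fam46c KO replicate 1. On that reckoning they would rest on 5700 fragments or more, an error of 1.33% or less. These errors cover counting alone. For Fam46c itself the WT libraries held 236 and 134 FPKM, and the Fam46c KO libraries 131 and 129.9, so WT replicate 2 is close to the Fam46c KO libraries and, with the mutated part unknown, this level does not check the labels. Of the marker lists, summed Leydig cell markers (10 symbols, all in the tables and none at 0 throughout) were 1330 and 1440 FPKM in WT and 686 and 352 in Fam46c KO. Most of that sum was Insl3, a Leydig cell hormone, with 1099.6 and 1136 FPKM in WT against 379 and 189 in Fam46c KO, and the other 9 symbols summed to 230.1 and 304 in WT and 307 and 163 in Fam46c KO, which overlapped. The steroid enzyme gene Cyp17a1 had 77.4 and 128 FPKM in WT and 129 and 56.4 in Fam46c KO, so it was not lower in Fam46c KO replicate 1. Limma called 1 of the 9 Leydig markers tested, Insl3, and 2 of 8 macrophage and blood markers, Hba-a1 and Beta-s, all lower in Fam46c KO (log2 fold changes -2.06, -3.77 and -2.61, adjusted p = 0.00507, 3.82e-06 and 1.34e-05). Globin genes have near-identical copies, so the split of fragments among them is uncertain. The part of these cells in the results on the members was not tested.

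Protamine and transition protein mRNAs were the 4 most abundant transcripts in every library. Prm1, which encodes the protamine found in all mammalian sperm, ranked 1 in all 4 libraries. WT replicates 1 and 2 held 15928.5 and 20632 FPKM, against 23903 and 18089 in Fam46c KO replicates 1 and 2. The WT replicate 1 value was the lowest and the Fam46c KO replicate 1 value the highest, with the other libraries between them, so the genotypes overlapped. Prm2, which encodes a protamine made as a longer precursor and then cleaved, had 12311 and 13844 FPKM in WT and 14807 and 11185 in Fam46c KO. Here the Fam46c KO libraries were the highest and the lowest of the 4 and bracketed both WT libraries. For all spermatid mRNAs in whole testis, fewer cells of a type and less RNA per cell cannot be told apart.

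Tnp1, the gene of the smaller transition protein, had 9507 and 13716 FPKM in WT against 16320 and 13440 in Fam46c KO. Its WT replicate 1 stood apart below the other libraries, and WT replicate 2 lay between the Fam46c KO values. Tnp2, the gene of the larger transition protein, which binds zinc, had 7323 and 11428 FPKM in WT against 11209 and 10416 in Fam46c KO. Again WT replicate 1 was low, and the highest value was that of WT replicate 2. Tnp1 ranked 3 in both WT libraries and 2 in both Fam46c KO libraries, and Prm2 the reverse, while Tnp2 ranked 4 throughout.

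**Figure D1:**
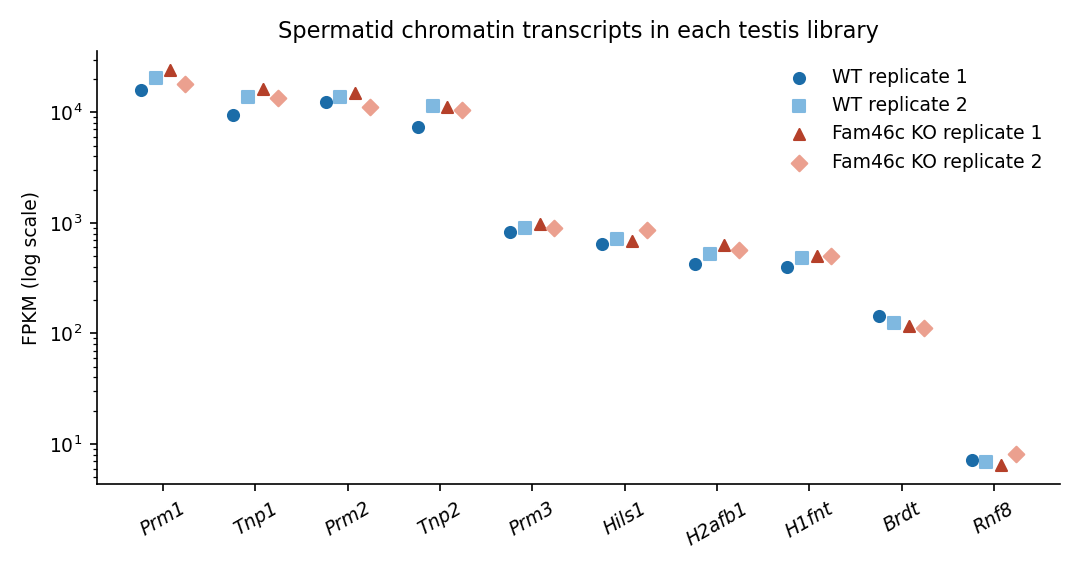
FPKM (log scale) of each member in each of the 4 libraries, 1 point per library, with genes ordered by their mean level. Levels run from 23903 FPKM for Prm1 to 6.51 for Rnf8, and for most genes the points of both genotypes lie among each other.

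Together these 4 mRNAs made up 9.04% and 12.0% of the summed FPKM in WT and 12.5% and 10.8% in Fam46c KO. By gene, Prm1 took 3.20% and 4.15% of the library total in WT and 4.52% and 3.69% in Fam46c KO. Prm2 took 2.47% and 2.78% in WT against 2.80% and 2.28% in Fam46c KO. The share of Tnp1 was 1.91% and 2.76% in WT, and 3.09% and 2.74% in Fam46c KO. That of Tnp2 was 1.47% and 2.30% in WT, and 2.12% and 2.13% in Fam46c KO. The summed share was 10.5% ± 2.08 in WT and 11.7% ± 1.19 in Fam46c KO (SD, n = 2 each), a difference smaller than the spread within WT. With 2 against 2 libraries an exact permutation test cannot go below p = 0.333, so no share was tested.

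**Figure D2:**
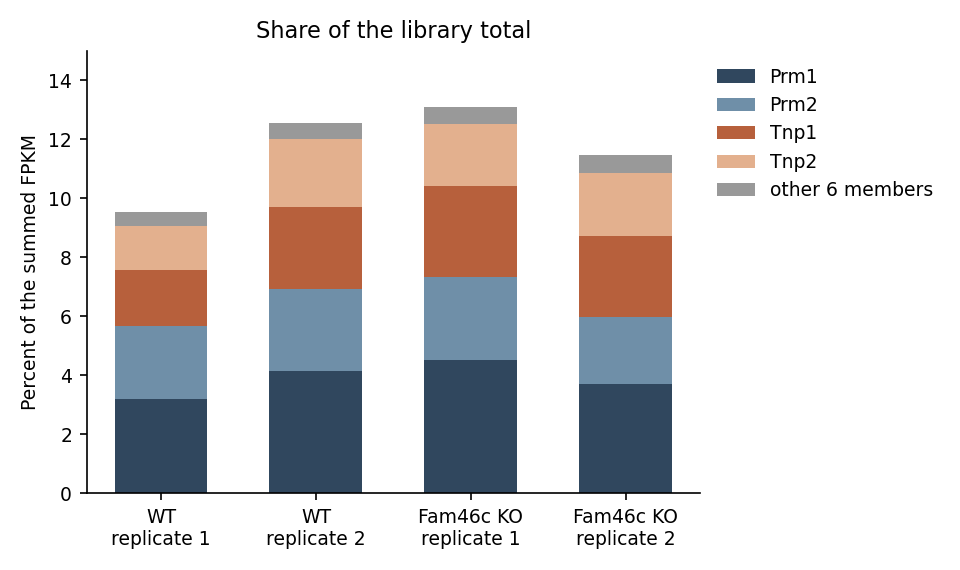
Stacked bars of the percent of summed FPKM taken by Prm1, Prm2, Tnp1, Tnp2 and the other 6 members in each library. WT replicate 1 has the shortest bar, 9.54% for all 10 members, against 11.5% to 13.1% in the other libraries.

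The remaining members reached far lower levels. Prm3, whose product is not incorporated into chromatin as the other protamines are, had 826 and 907 FPKM in WT against 985 and 899.7 in Fam46c KO. That is 0.166% and 0.182% of the library total in WT, and 0.186% and 0.184% in Fam46c KO. In FPKM the WT replicate 2 value lay between those of Fam46c KO, whereas in share both Fam46c KO libraries stood just above both WT libraries.

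Among the spermatid linker histones, Hils1 had 643 and 716 FPKM in WT against 689.7 and 870.0 in Fam46c KO, or 0.129% and 0.144% of the total in WT and 0.130% and 0.178% in Fam46c KO. Fam46c KO replicate 2 stood above the other libraries, which lay close together. H1fnt, which encodes a linker histone of the apical pole of the spermatid nucleus, had 401 and 483 FPKM in WT against 497 and 498 in Fam46c KO. Both Fam46c KO values were above both WT values, by little over WT replicate 2. In share of the total the genotypes overlapped, at 0.0805% and 0.0971% in WT and 0.0940% and 0.102% in Fam46c KO.

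H2afb1 had 425 and 520 FPKM in WT against 626 and 567 in Fam46c KO, without overlap. Its share was 0.0854% and 0.105% in WT and 0.118% and 0.116% in Fam46c KO, again without overlap. The proteins that act on chromatin earlier had the rarest mRNAs of the set. Brdt encodes a testis bromodomain protein that reads acetylated histones. It had 145 and 123 FPKM in WT against 116 and 111 in Fam46c KO, or 0.0291% and 0.0248% of the total in WT and 0.0219% and 0.0227% in Fam46c KO. It was the only member with both Fam46c KO libraries below both WT libraries, in FPKM and in share. Rnf8, a ubiquitin ligase that acts on histones, had 7.22 and 6.94 FPKM in WT against 6.51 and 8.06 in Fam46c KO. Its share was 0.00145% and 0.00140% in WT and 0.00123% and 0.00165% in Fam46c KO, with the WT libraries inside the Fam46c KO range.

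By their means over the 4 libraries the order was Prm1, Tnp1, Prm2, Tnp2, Prm3, Hils1, H2afb1, H1fnt, Brdt and Rnf8. Over the 4 libraries the ranges of the neighbours Prm1 and Tnp1, Tnp1 and Prm2, Prm2 and Tnp2, Prm3 and Hils1, and H2afb1 and H1fnt overlapped, although Prm1 was above Tnp1 within each library. The ranges of Tnp2 and Prm3, Hils1 and H2afb1, H1fnt and Brdt, and Brdt and Rnf8 did not overlap. Prm1 exceeded Rnf8 by 2735 times in the mean, with both on the FPKM scale.

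Between the genotypes, none of the 10 members passed the test. All 10 had a mean of at least 1 FPKM and were among the 12258 symbols tested. Limma was fitted on log2(FPKM + 1) across all of these with Benjamini-Hochberg adjustment. It called 0 of the 10 at an adjusted p under 0.05, against 0.114% of all tested symbols. At that share a count of 0 says little about 10 genes. At an unadjusted p under 0.05 there was 1 member, H2afb1, against 2.02% of all. Of the 10, 8 had a positive and 2 a negative log2 fold change, with a median of 0.18. Among all 12258 tested symbols 5850 were positive and 6408 negative, with a median of -0.01. The signs of the members are not independent, since WT replicate 1 was the lowest library for 7 of the 10. Both Fam46c KO libraries lay above both WT libraries for 2 members, H1fnt and H2afb1, against 9.47% of all tested symbols. Both lay below for 1 member, Brdt, against 10.6% of all.

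The fold changes were small and their intervals wide. H2afb1 had 473 ± 66.8 FPKM in WT and 597 ± 42.0 in Fam46c KO (SD, n = 2 each), a log2 fold change of 0.34 (SE 0.14, 95% interval 0.03 to 0.65, limma adjusted p = 1.00). Tnp1 had the largest fold change of the members, 0.38 (SE 0.20, interval -0.06 to 0.81), from 11612 ± 2976 to 14880 ± 2036 FPKM (n = 2 each, limma adjusted p = 1.00). The Tnp1 interval runs from slightly lower to clearly higher in Fam46c KO. Brdt had 134 ± 15.6 FPKM in WT and 113 ± 3.06 in Fam46c KO (SD, n = 2 each), with a log2 fold change of -0.24 (SE 0.13, interval -0.52 to 0.05, limma adjusted p = 1.00). Tnp2 and Prm1 had log2 fold changes of 0.24 (interval -0.20 to 0.68) and 0.20 (-0.23 to 0.63), and Prm2 one of -0.02 (-0.41 to 0.37). For Hils1, H1fnt, Prm3 and Rnf8 the log2 fold changes were 0.19, 0.18, 0.12 and 0.03, with intervals that all included 0 and reached at most 0.51. The limma adjusted p was 1.00 for each of these 7 genes.

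**Figure D3:**
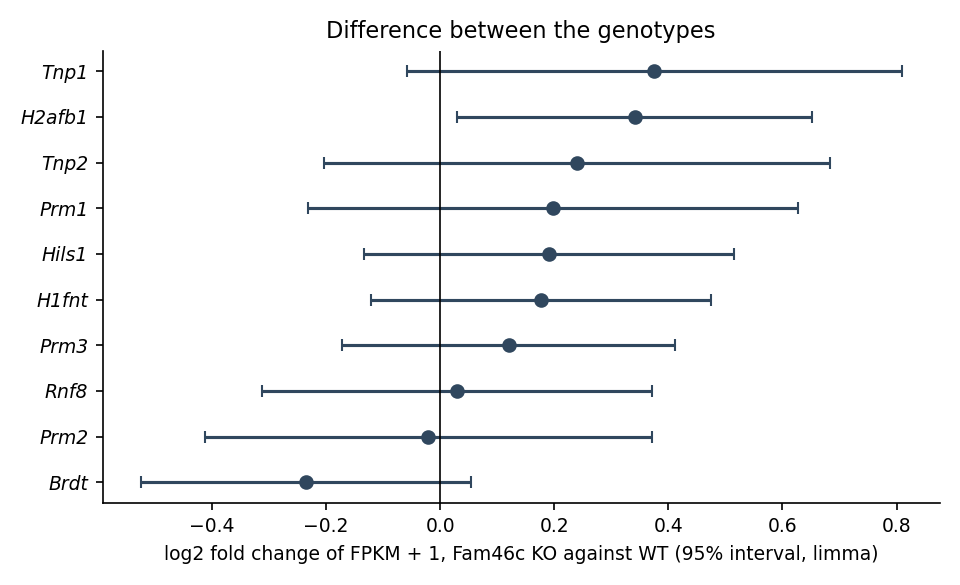
Log2 fold change of FPKM + 1 between Fam46c KO and WT for each member, with its 95% interval from limma (2 libraries per genotype). Intervals of 9 members cross 0, and that of H2afb1 runs from 0.03 to 0.65 before adjustment over 12258 symbols.

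The fold changes moved with single libraries, and WT replicate 1 stood out for Tnp1 and Tnp2. That library held the lowest value of 7 of the 10 members and the highest of 1, Brdt. From WT replicate 1 to WT replicate 2 the ratio of FPKM was 1.56 for Tnp2, 1.44 for Tnp1 and 1.30 for Prm1. Among 992 abundant symbols (mean of 100 FPKM or more), Tnp2 was at percentile 99.4, Tnp1 at 98.6 and Prm1 at 95.6 of the distance from the median difference between the WT libraries. Between the Fam46c KO libraries the same genes were at percentiles 14.1, 63.8 and 83.9. Without WT replicate 1 the log2 fold change was 0.11 for Tnp1, -0.08 for Tnp2, 0.01 for Prm1, 0.20 for H2afb1 and -0.12 for Brdt. Without WT replicate 2 these were 0.64, 0.56, 0.38, 0.49 and -0.35. Without Fam46c KO replicate 1 they were 0.24, 0.19, -0.0031, 0.27 and -0.26, and without Fam46c KO replicate 2 they were 0.52, 0.29, 0.40, 0.41 and -0.21. Hils1, at 0.19 with all libraries, was at 0.36 without Fam46c KO replicate 1 and 0.02 without Fam46c KO replicate 2. H1fnt was at 0.04 without WT replicate 1 and 0.31 without WT replicate 2, and Prm3 at 0.05 and 0.19. Prm2 ranged from -0.22 to 0.18 and Rnf8 from -0.11 to 0.16, each positive or negative by which Fam46c KO library was left out. Limma called none of the 10 members in any of these fits, in which a lone library was assumed to vary like the others.

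The median of other late spermatid transcripts differed little between the WT libraries. The 17 elongating spermatid reference genes, among them Odf1, Akap4 and Smcp, had median deviations from their own mean of -0.01 in WT replicate 1 and 0.06 in WT replicate 2 on the log2 scale. In the Fam46c KO libraries these were 0.05 and -0.14. Single genes of this list moved both ways between WT replicates 1 and 2, such as Tekt2 (252 and 197 FPKM) and Spata3 (432 and 515 FPKM). For Tnp1 the deviations were -0.45, 0.08, 0.33 and 0.05 in the same order, and for Tnp2 they were -0.44, 0.20, 0.17 and 0.07. The 10 Sertoli cell markers found in the tables, of 11 looked up and none at 0 throughout, summed to 861 and 647 FPKM in WT and to 723 and 720 in Fam46c KO. The 14 spermatocyte reference genes summed to 1282 and 1151 FPKM in WT and 1233 and 1219 in Fam46c KO. The 19 round spermatid reference genes summed to 3628 and 3385 FPKM in WT and 3562 and 3554 in Fam46c KO. All 3 of these lists were highest in WT replicate 1, the library in which 7 members were lowest, and their part in the result was not tested.

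**Figure D4:**
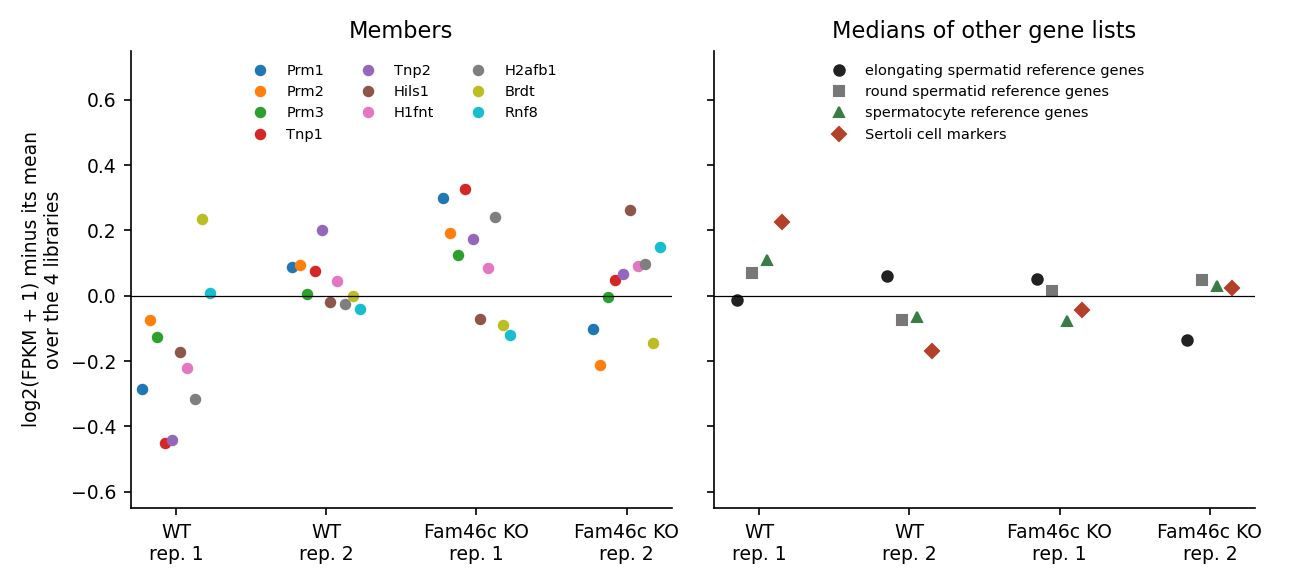
Deviation of log2(FPKM + 1) from its mean over the 4 libraries, for each member (left) and as the median of 4 other gene lists (right). In WT replicate 1 the members reach down to -0.45 for Tnp1 while the elongating spermatid median is at -0.01 and the Sertoli cell median at 0.23. A list median varies less than a single gene does.

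Set against the elongating spermatid median of the same library, more members separated by genotype. On this scale both Fam46c KO libraries were above both WT libraries for 5 of the 10, Prm1, Prm3, Tnp1, H1fnt and H2afb1, against 15.9% of all tested symbols. Both were below for 0 of the 10, against 3.58% of all, and the other 5 overlapped. The mean difference was largest for Tnp1, 0.44, and H2afb1, 0.41. The reference median was itself low in Fam46c KO replicate 2, which raises every gene of that library on this scale, and no test was made on this scale.

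Transcript length was looked at because protamine and transition protein mRNAs are short, from 410 bases for Prm3 to 674 for Prm2, and FPKM of short transcripts depend on how fragment size is treated. Among abundant symbols other than the members, 126 with transcripts of at most 700 bases had a median log2 difference of -0.12 from WT replicate 1 to WT replicate 2, and 844 longer ones one of -0.03. For the 5 protamine and transition protein genes this difference was 0.13 for Prm3 to 0.64 for Tnp2. Between genotypes the short class had a median log2 fold change of 0.09 and the long class 0.01. The part of transcript length in the differences between the WT libraries and between genotypes was not tested.

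Ratios of members within a library do not depend on how libraries are scaled. The Prm2 to Prm1 ratio of FPKM was 0.773 and 0.671 in WT and 0.619 and 0.618 in Fam46c KO. Both Fam46c KO values were below both WT values and nearly equal to each other, and WT replicate 2 lay nearer to them than to WT replicate 1. The Tnp1 to Prm1 ratio was 0.597 and 0.665 in WT and 0.683 and 0.743 in Fam46c KO, with no overlap and a small gap. The Tnp1 to Prm2 ratio was 0.772 and 0.991 in WT and 1.10 and 1.202 in Fam46c KO, so Tnp1 exceeded Prm2 in the Fam46c KO libraries alone. The Tnp2 to Tnp1 ratio, at 0.770 and 0.833 in WT and 0.687 and 0.775 in Fam46c KO, overlapped. Transition proteins to protamines (Tnp1 plus Tnp2 to Prm1 plus Prm2) also overlapped, at 0.596 and 0.729 in WT and 0.711 and 0.815 in Fam46c KO. So did Prm3 to Prm1, Hils1 to H1fnt and Prm1 to Brdt. Of the 36 ratios among the 9 members with a mean of at least 100 FPKM, 12 (33.3%) did not overlap between genotypes in either direction. Among all 489555 ratios of symbols at this level the share was 21.4%. Brdt was part of 6 of the 12 and H2afb1 of 4. Ratios that share a gene are not independent, and none was tested.

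**Figure D5:**
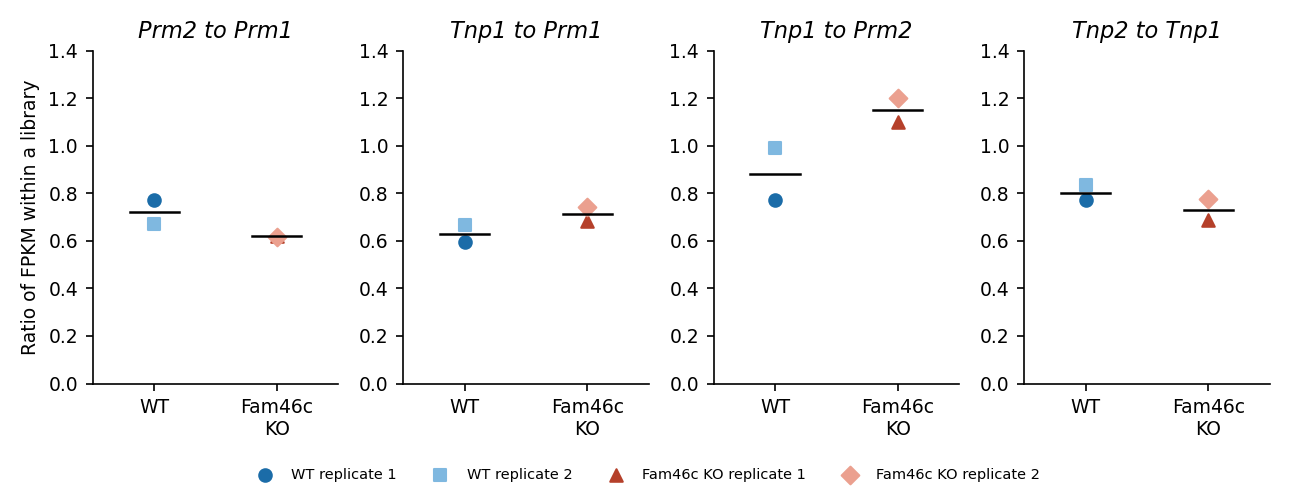
Ratios of FPKM within each library for 4 pairs of members, with points for libraries and lines for the mean of each genotype (n = 2). The Prm2 to Prm1 points of Fam46c KO lie at 0.619 and 0.618, below both WT points, and the Tnp2 to Tnp1 points overlap.

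The genes whose profile over the 4 libraries came closest to the summed protamine and transition protein mRNAs were 4930544D05Rik, 1700016P04Rik, Oxct2a, 1110017D15Rik and 1700034E13Rik. Likeness was the root mean square distance of centred log2 values, 0.03 to 0.07 for these 5, among the other 983 abundant symbols. The closest, 4930544D05Rik, had 137 and 174 FPKM in WT against 202 and 156 in Fam46c KO. Oxct2a, a testis form of a ketone body enzyme, had 96.7 and 124 FPKM in WT against 128 and 108 in Fam46c KO. In all, 22 symbols lay within 0.1.

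Other genes of nuclear remodelling showed no called change either. All 36 symbols of the list that are in the tables were tested, and limma called 0, with 0 at an unadjusted p under 0.05. Among all tested symbols the shares were 0.114% and 2.02%, so counts of 0 say little about a list of this size. Of these 13 had a positive and 23 a negative log2 fold change, with a median of -0.03 and a range of -0.15 to 0.19. The smallest p-values were those of Myst1, a histone H4 acetyltransferase (73.1 and 75.5 FPKM in WT, 83.4 and 81.0 in Fam46c KO), and Cdyl, a chromodomain protein (68.1 and 79.9 in WT, 68.9 and 103.5 in Fam46c KO). Their log2 fold changes were 0.14 and 0.19. The next were Parp2, a poly(ADP-ribose) polymerase, at -0.15, and Tssk6, a kinase of spermatids, at -0.13. Limma adjusted p was 1.00 for all of them. The most abundant genes of the list were Phf7, a chromatin reader of male germ cells, Hspa2, a chaperone of transition proteins, and Tssk6. Phf7 had 1091 and 1114 FPKM in WT against 1170 and 1077 in Fam46c KO, and Hspa2 486 and 439 in WT and 438 and 413 in Fam46c KO. Hspa2 was lower in both Fam46c KO libraries, though only just below WT replicate 2 in Fam46c KO replicate 1, with a log2 fold change of -0.12 (SE 0.13). Of the 36, 4 had both Fam46c KO libraries below both WT libraries and 3 had both above. Among all tested symbols these shares were 10.6% and 9.47%.

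Of the 18 histone variant symbols found, 16 were tested, and limma called 0, with 0 at an unadjusted p under 0.05 (median log2 fold change -0.01, range -0.67 to 0.15). The shares of all tested symbols were again 0.114% and 2.02%, so these counts too say little. The lower end was Hist1h2ba, the testis H2B variant of spermatocytes and spermatids, with 5.87 and 1.96 FPKM in WT against 1.24 and 2.57 in Fam46c KO. It had a log2 fold change of -0.67 with SE 0.33 (limma adjusted p = 1.00), and the high WT replicate 1 value stood alone. Hist1h2aa, the matching H2A variant, was at -0.24, and H2afj at 0.15. The most abundant was 1700024P04Rik, named H2bl1 in RefSeq, with 512 and 562 FPKM in WT against 654 and 544 in Fam46c KO, a log2 fold change of 0.15. The replacement histone H3.3 genes H3f3a and H3f3b followed, with log2 fold changes of 0.03 and 0.12 and overlapping libraries.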

How the data were processed

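RNA was sequenced from testes in 4 libraries, and the authors deposited 1 table of FPKM per library, per the file headers. The build was mm9, and Cufflinks 2.0.2, TopHat2 2.0.6 and Cuffdiff are named without a role, per the submitters' processing notes. Annotation, strand setting and multi-mapping rules: not given in the sources used here. Rows that repeat a symbol were summed, which touched none of the members.

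The members and lists were chosen with earlier results of these data known. Values were tested as log2(FPKM + 1) for the 12258 symbols averaging 1 FPKM or more, using limma 3.58.1 (R 4.3.3) and a moderated variance that follows an intensity trend, two-sided, with Benjamini-Hochberg adjustment over all of them. There were 2 residual and 9.48 prior degrees of freedom. The fit was tested on simulated data. Fold changes on this scale understate those of low genes. Besides the members, the genes named were every called list gene, the 4 of smallest p and the 3 of highest mean in the lists of nuclear remodelling and histone variants, and the 5 nearest profiles. Shares, ratios and lengths were computed in Python 3.11.15. Transcript lengths from GENCODE M21 were found for 98.7% of tested symbols, and promoters come from RefSeq (GRCm38.p6). The authors' build was mm9, so names, sequences, transcript lengths and the depth and counting errors derived from those lengths rest on another annotation than the FPKM. Alternatives changed the pseudocount, filter, scaling, variance model, block and libraries.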

Additional observations from a re-analysis of the deposited data

How the results depend on the processing

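Limma called 0 of the 10 members, 0 of the nuclear remodelling genes and 0 of the histone variants in the main fit. The counts stayed at 0 with pseudocounts of 0.1 and 5, no filter, a mean of at least 5 FPKM and 4 rescalings. Other variance models and a replicate block left them at 0 too. Few symbols were called among all genes, so counts of 0 say little about lists of this size. Among all genes the count was 14, and it became 2 with no filter on low values, 9 with a mean of at least 5 FPKM, 7 after total scaling, 6 after total scaling without the members, after median scaling and after quantile normalization, and 8 with robust variance. Leaving out a library gave 9 to 21. With the replicate block it was 68, and the deviations of same-numbered libraries correlated at -0.03 over 12258 symbols. The labels do not say whether libraries of the same number belong together, and the correlation over all symbols cannot decide it. Directions turned for Prm1 (-0.0031 without Fam46c KO replicate 1), Prm2 (0.06 without WT replicate 2 and 0.18 without Fam46c KO replicate 2), Tnp2 (-0.081 without WT replicate 1) and Rnf8 (-0.11 without Fam46c KO replicate 2), and the range with a library left out was -0.0031 to 0.40, -0.22 to 0.18, -0.081 to 0.56 and -0.11 to 0.16 for them. Quantile normalization set Prm1 and Tnp2 to a log2 fold change of 0 by construction, because each has the same rank in all 4 libraries. Tnp1, H2afb1, H1fnt, Hils1 and Prm3 stayed positive and Brdt negative in all alternatives. Many of these could not have turned a direction. The filters, variance models and replicate block leave a member's fold change as it was. For H1fnt, H2afb1 and Brdt the genotypes do not overlap, so leaving out a library cannot turn the sign. After quantile normalization the sign of Tnp1 follows from its rank, 3 in WT and 2 in Fam46c KO. With a library left out, Hils1 ranged from 0.02 to 0.36, H1fnt from 0.04 to 0.31 and Prm3 from 0.05 to 0.19. The 2 libraries per genotype limit the precision of every member.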
